A study of Arabidopsis thaliana with 4 samples.

Results

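Of 31189 annotated transposable elements (TEs) of Arabidopsis thaliana, 29 met a rule that asked, in each of 2 PORI rpt2a seedling libraries, for a small RNA level at least 4 times the higher of 2 PORI libraries. For 1 of them, AT5TE54260, the rule was met in PORI rpt2a replicate 2 only as a level of 0 against 0. The level used was CPM, the reads of 18 to 26 nt counted for a TE scaled to the total of the library's TE table. A TE also needed at least 40 reads in the PORI rpt2a libraries together, a minimum that 4241 TEs reached, so the 29 were 0.684% of those that could qualify. The same values of the same 4 libraries chose these TEs, so their rise is a description and not a test. Leaving out PORI replicate 1 or 2 raised the number that qualified to 93 or 81. Leaving out PORI rpt2a replicate 1 or 2 gave 173 or 58, but with a read minimum below 40. Without replicate 2, for example, AT3TE56945 qualified on 21 reads, so these numbers do not follow from the rule as stated. The 29 were all among them except without PORI rpt2a replicate 1, where 14 were. Leaving out a library can only loosen the fold condition, so a member could be lost through the read minimum alone. That the 29 stayed is therefore no test of them.

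In plants, TEs are kept silent largely by RNA-directed DNA methylation. RNA polymerase IV and the RNA-dependent RNA polymerase RDR2 make double-stranded RNA from them, DCL3 cuts it into siRNAs of 24 nt, and AGO4 carries these to guide methylation by DRM2. DCL4 and DCL2 cut siRNAs of 21 and 22 nt, which act mainly on RNA in post-transcriptional silencing and also arise from TEs that are transcribed.

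Small RNAs were sequenced from seedlings 10 days after germination. The control was a genotype named PORI, and the mutant was PORI rpt2a, so all 4 libraries share PORI, which the labels do not explain. Below, control and mutant reads stand for those of PORI and PORI rpt2a, with replicate 1 given before replicate 2. RPT2a belongs to the ring of ATPases in the proteasome's regulatory particle, and the study asked whether it favours post-transcriptional gene silencing by restraining RNA quality control. The labels give neither the rpt2a allele nor whether the 2 replicates of a group were separate cultures, so the spread between them may be technical.

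TE table totals were 715242 and 479710 for the control and 743563 and 228603 for the mutant. A single read was therefore worth 1.40, 2.08, 1.34 and 4.37 CPM, respectively. The smallest total was that of PORI rpt2a replicate 2, where 10163 TEs were detected against 16089 to 18053 elsewhere. It also differed most in read length. Over all TEs, 22 nt reads made up 9.81% and 10.1% of control counts and 15.2% and 20.8% of mutant counts. The 24 nt reads made up 59.8% and 58.1% in the control and 55.3% and 45.5% in the mutant. With 2 against 2 libraries an exact permutation test cannot go below p = 0.333. Fragments of 4 mRNAs of green shoots (RBCS1A, RBCS2B, CAB1 and CAB3) summed to 1647 to 4289 counts per library and those of 2 root mRNAs (PYK10 and PBP1) to 56 to 234, while those of 3 seed storage mRNAs summed to at most 2 and of 1 pollen mRNA to at most 1. Shoot and root markers were thus present, as the seedling label implies, but at different levels. As CPM of the 3 tables together, the root sum was 40.3 and 44.5 in the control and 26.9 and 17.3 in the mutant. The shoot sum was 739 and 651 in the control and 587 and 508 in the mutant. Both sums were lower in both mutant libraries, and edgeR's adjusted p was 0.299 for PYK10 and 0.216 for PBP1. The shoot mRNAs were split. On the log2 scale of mutant over control, edgeR put RBCS1A at -0.32 and RBCS2B at -0.85, but CAB1 at 0.081 and CAB3 at 0.36. Their adjusted p-values in edgeR were 0.623, 0.152, 0.909 and 0.581. The part of these markers in the results below was not tested.

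The 29 TEs together took 237 and 141 control and 1731 and 840 mutant reads. As shares of the TE table these were 0.0331% and 0.0294% in the control and 0.233% and 0.367% in the mutant. They were thus minor sources of small RNA in every library. In whole seedlings, more cells making these small RNAs and more small RNAs per cell cannot be told apart. In 21 of 29 the level was higher in PORI rpt2a replicate 2 than in replicate 1. The 29 fell into 2 kinds by the most frequent read length in the PORI rpt2a libraries, a division made after the lengths were seen and therefore not tested. In 22 TEs it was 24 nt, and in the other 7 it was 18, 20, 21, 23 or 26 nt. The 22 had PORI reads without exception, whereas 5 of the 7 had none.

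Not every member was higher in both mutant libraries. AT5TE54260 had 45 reads in PORI rpt2a replicate 1 and 0 in replicate 2, and AT3TE55285 had 104 and 1, each with 0 control reads. They qualified because any level is at least 4 times 0. The other 27 had at least 8 reads in each PORI rpt2a library.

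**Figure D1:**
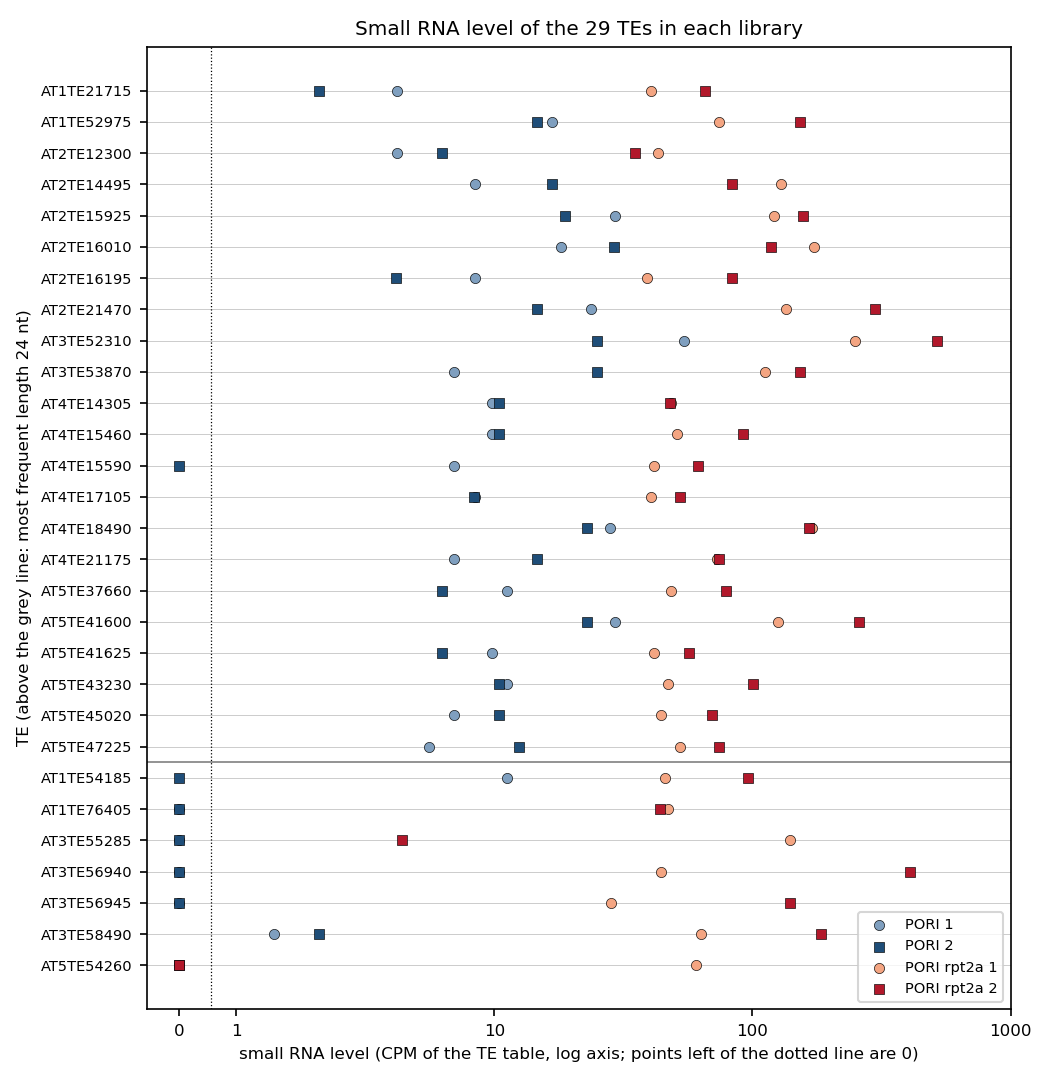
Level of each of the 29 TEs in the 4 libraries, in CPM of the TE table on a log axis, with levels of 0 drawn left of the dotted line, where points of several libraries overlap. The PORI rpt2a points lie to the right of the PORI points in every row except that PORI rpt2a replicate 2 is at 0 for AT5TE54260, and lies at 4.37 CPM for AT3TE55285.

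Among the 22 TEs with 24 nt as the most frequent length, control levels ranged from 0 to 54.5 CPM and mutant levels from 35.0 to 521 CPM. Their median level was 9.79 and 11.5 CPM in the control and 51.8 and 83.1 CPM in the mutant. The ratio of pooled reads, scaled to the pooled TE totals of each group, had a median of 6.71 and ran from 4.81 for AT4TE14305 to 13.8 for AT1TE21715. Each ratio carries a wide counting interval, because most of these TEs had fewer than 20 reads in PORI. AT3TE52310 had the most reads, 39 and 12 control and 185 and 119 mutant reads, a ratio of 7.33 (exact 95% interval 5.43 to 10.1, counting error only). It stood at 54.5 and 25.02 CPM in the control and 249 and 521 CPM in the mutant, so PORI rpt2a replicate 2 was far above replicate 1. AT1TE21715, with the largest ratio of the 22, rests on few reads, 3 and 1 control and 30 and 15 mutant reads (interval 5.04 to 52.9).

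Chromosome 2 held 6 of the 22. AT2TE21470 had 17 and 7 control and 100 and 68 mutant reads, a ratio of 8.604 (exact interval 5.59 to 13.8). AT2TE16010 had 13 and 14 control and 129 and 27 mutant reads, and AT2TE14495 had 6 and 8 control and 96 and 19 mutant reads. In AT2TE16010 and AT2TE14495 the level was higher in PORI rpt2a replicate 1, at 173 against 118 CPM and 129 against 83.1 CPM. AT2TE15925, between them in the TE order, had 21 and 9 control and 90 and 36 mutant reads. AT2TE16195 had 6 and 2 control and 29 and 19 mutant reads, and AT2TE12300 had 3 and 3 control and 32 and 8 mutant reads. The 8 reads of AT2TE12300 in PORI rpt2a replicate 2 were the smallest mutant count of the 22.

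Chromosome 4 also held 6 of them. AT4TE18490 had 20 and 11 control and 127 and 38 mutant reads, or 28.0 and 22.9 CPM against 171 and 166 CPM, so its replicates lay close together in both groups. The same was true of AT4TE14305, at 9.79 and 10.4 CPM in the control and 48.4 and 48.1 CPM in the mutant, and of AT4TE17105, at 8.39 and 8.34 CPM in the control and 40.3 and 52.5 CPM in the mutant. All 3 were among the 9 members that fell below the 4-fold minimum when levels were scaled to the sum of the miRNA, gene and TE tables, which left 20 of the 29. All 9 belonged to the 22 TEs led by 24 nt reads, of which 13 remained. AT4TE15590 had 5 and 0 control and 31 and 14 mutant reads. AT4TE15460 had 7 and 5 control and 38 and 21 mutant reads. AT4TE21175 had 5 and 7 control and 54 and 17 mutant reads, and its reads of 23 nt and 24 nt were almost equal in number, at 22 and 23.

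On chromosome 5 there were 6 more. AT5TE41600 had 21 and 11 control and 93 and 59 mutant reads, and AT5TE41625, 5 places further in the TE order, had 7 and 3 control and 31 and 13 mutant reads. Their ratios were 5.84 (exact interval 3.97 to 8.84) and 5.41 (2.68 to 12.1). AT5TE45020 had 5 and 5 control and 33 and 16 mutant reads and the highest share of 24 nt reads of all members, 71.4%. The other 3, AT5TE37660, AT5TE43230 and AT5TE47225, had 4 to 8 reads in PORI replicate 1 and 3 to 6 in replicate 2, against 35 to 39 and 17 to 23 in PORI rpt2a. The remaining 4 were AT1TE21715 and AT3TE52310, described above, AT1TE52975 with 12 and 7 control and 55 and 35 mutant reads, and AT3TE53870 with 5 and 12 control and 83 and 35 mutant reads.

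Of the other 7 TEs, 5 had no PORI reads at all. AT3TE56940 and AT3TE56945 stood next to each other in the TE order and had no control reads, with 33 and 93 mutant reads for the first and 21 and 32 for the second. With a floor of 3 reads over the PORI group they were at least 51.6-fold and 21.7-fold higher. AT3TE58490 had 1 and 1 control and 47 and 42 mutant reads, a ratio of 54.7 with a counting interval of 14.7 to 459. On chromosome 3, these TEs and AT3TE55285 lay between 52.5% and 61.7% of the way along the TE order. AT1TE54185 differed between the PORI libraries, with 8 reads in replicate 1 and 0 in replicate 2, against 34 and 22 in PORI rpt2a.

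The reads of these TEs were spread over more lengths, or sat at other lengths, than those of the 22. Of the reads of the 7, 37.9% (exact 95% interval 32.6% to 43.5%) in PORI rpt2a replicate 1 and 65.5% (58.5% to 72.1%) in replicate 2 were 18 to 20 nt long, against 4.46% and 6.25% for the 22 TEs and 5.55% and 9.18% over all TEs. The most frequent length was 18 nt for AT3TE56940, AT3TE56945 and AT1TE54185, 20 nt for AT3TE58490 and 21 nt for AT3TE55285, with all lengths from 18 to 22 nt present in each. These are the pooled mutant reads, and the libraries differed. AT3TE56945 had 1 of 21 reads at 18 nt in replicate 1, where 24, 25 and 26 nt tied, and 9 of 32 in replicate 2. AT1TE54185 had 12 of 34 at 18 nt in replicate 1 but most at 21 nt in replicate 2, and AT3TE58490 had most at 20 nt in replicate 1 and at 18 nt in replicate 2. In AT3TE56940, 54.0% of the reads were 18, 19 or 26 nt long, and in AT3TE55285 29.5%. AT5TE54260 was of another sort, with 24 of its 45 reads at 26 nt, and its counts equalled those of a tRNA gene, as described further on. AT1TE76405 was the exception among the 7. It had no control reads and 35 and 10 mutant reads, a ratio of 18.4 with the floor of 3 reads and an exact 95% interval that began at 14.4. Of these 45 reads 22 were 23 nt, 21 were 24 nt and 2 were 22 nt.

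**Figure D2:**
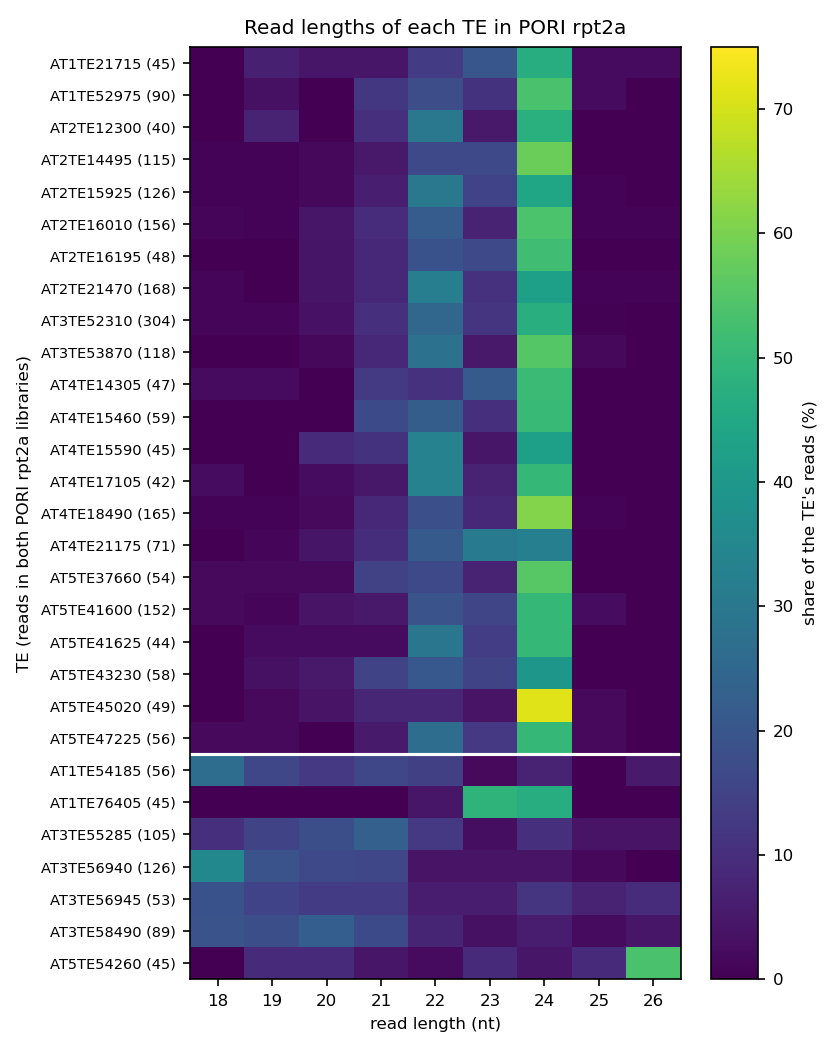
Share of each TE's reads at each length from 18 to 26 nt, with both PORI rpt2a libraries pooled and the number of reads in parentheses. The 22 TEs above the white line have their brightest cell at 24 nt, and the 7 below it at other lengths, AT1TE76405 at 23 and 24 nt and AT5TE54260 at 26 nt.

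In the 22 TEs, set apart by their 24 nt maximum, most small RNAs had the sizes of siRNAs. Over all TEs 24 nt was also the most frequent length in the mutant, at 55.3% and 45.5%, so this is no trait of the 22. Reads of 21 to 24 nt made up 84.4% to 100% of each TE's reads in PORI rpt2a, and 22 nt was the second most frequent length in 18 of the 22. These 18 include AT2TE14495, where 22 and 23 nt tied at 19 reads, and leave out AT5TE45020, where 21 and 22 nt tied at 4. Pooled over the 22, 24 nt reads were 61.4% (140 of 228) and 57.1% (80 of 140) in the control and 53.2% (751 of 1412) and 43.9% (281 of 640) in the mutant. Reads of 22 nt were 13.2% and 14.3% in the control and 21.3% and 26.4% in the mutant. In this sum the 24 nt share was lower, and the 22 nt share higher, in both mutant libraries than in both controls, more so in PORI rpt2a replicate 2. In that library 22 nt reads outnumbered 24 nt reads in 6 of the 22, and in replicate 1 in 0 of the 22.

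The level of every siRNA size was higher in PORI rpt2a, that of 22 nt by the most. As the rule chose these TEs for a rise in their summed reads, a rise in their main sizes was built in, and the ratios are a description. For 22 nt the summed level of the 22 TEs was 41.9 and 41.7 CPM in the control and 405 and 739 CPM in the mutant, and the ratio of group means was 13.7. For 24 nt it was 196 and 167 CPM in the control and 1010.0 and 1229 CPM in the mutant, a ratio of 6.18. The 21 nt and 23 nt levels had ratios of 9.32 and 7.003. Over all TEs, which were not chosen for a rise, the ratios were 1.37, 1.81, 0.832 and 0.855 for 21, 22, 23 and 24 nt. Expressed as reads of 22 nt per 100 of 24 nt, the 22 TEs had 21.4 and 25 in the control and 40.1 and 60.1 in the mutant. The 4212 other TEs with at least 40 mutant reads had 17.5 and 18.6 in the control and 29.1 and 47.3 in the mutant, and those of them in segments 3 to 6 of 10 of the TE order, described below, had 21.8 and 23.4, and 35.3 and 55.0. The shift towards 22 nt was therefore also present in the other TEs of the same libraries, and a difference between the 22 TEs and the others was not tested.

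**Figure D3:**
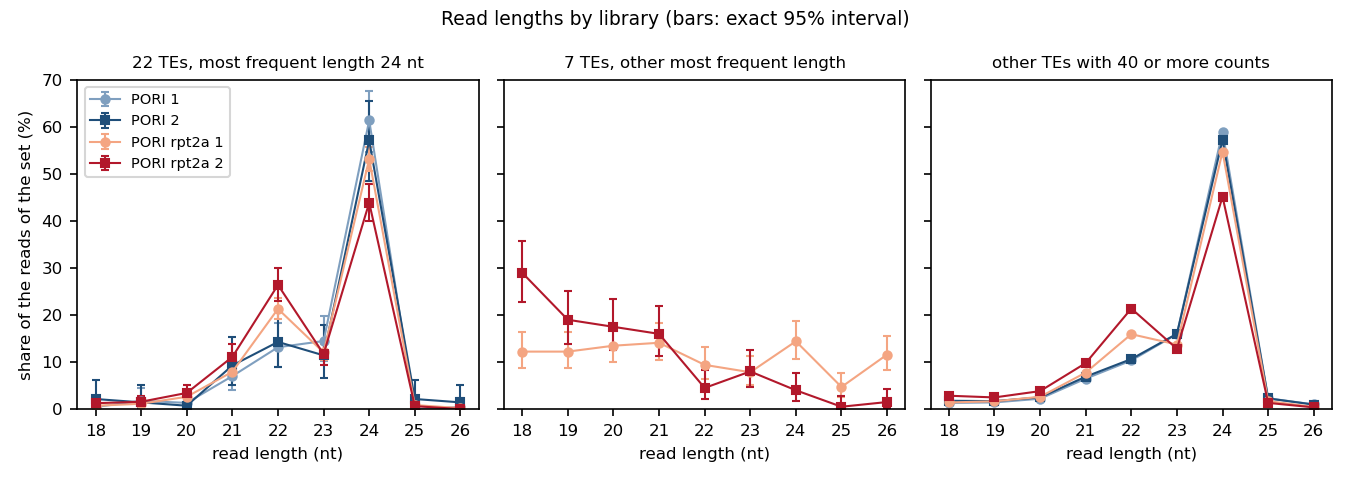
Share of reads at each length in each library for the 22 TEs with 24 nt as the most frequent length, for the 7 others (PORI rpt2a only, as PORI had 9 and 1 reads) and for 4212 other TEs with at least 40 reads in PORI rpt2a, with exact 95% intervals for counting error. The left and right panels both peak at 24 nt, and in both the 22 nt share is higher in PORI rpt2a than in PORI. For the other TEs 22 nt lies below 23 nt in PORI (10.3% against 16.0% in replicate 1) and above it in PORI rpt2a, while in the middle panel 24 nt reads are 14.4% in PORI rpt2a replicate 1 and 4% in replicate 2.

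The 29 TEs were spread over all 5 chromosomes, with 4 on chromosome 1, 6 on each of chromosomes 2, 3 and 4 and 7 on chromosome 5. As shares of the TEs with at least 40 mutant reads on the chromosome these were 0.479%, 0.734%, 0.632%, 0.797% and 0.789%. Along the chromosomes they were unevenly placed. TE identifiers are numbered along a chromosome, and their order was used as position, since no coordinates were used here. When each chromosome's TE order was cut into 10 equal parts, 25 of 29 members (86.2%) lay in segments 3 to 6, which held 55.1% of the 4241 TEs. This range of segments was not set in advance, and segments 2 to 6 held the same 25 members against 63.6% of the 4241 TEs. Of the 22 TEs led by 24 nt reads 21 lay in segments 3 to 6, AT1TE21715 near the start of chromosome 1 being the exception, and of the other 7 only 4. On chromosomes 2 and 4 the members lay between 24.2% and 47.2%, and between 23.3% and 46.1%, of the way along the order.

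The other TEs differed by position as well. Of the 4241 TEs, 34.6% had both PORI rpt2a libraries above both PORI libraries. As these TEs were kept by a minimum of mutant reads only, the shares and medians below can lean towards a rise. In segments 4 and 5 this share was 59.4% and 68.3%, and in the first and the last it was 8.79% and 1.87%. The median log2 ratio of mean CPM was 0.76 and 0.89 in segments 4 and 5, -0.66 in the first and -0.82 in the last, and -0.047 over the 4241 TEs. These 4 medians kept their signs when levels were scaled to the sum of the 3 tables or by TMM factors, which set the median of the 4241 TEs at -0.21 and 0.43, while segment 6 went from 0.11 to -0.055 under the first of these and segment 7 from -0.30 to 0.17 under the second.

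**Figure D4:**
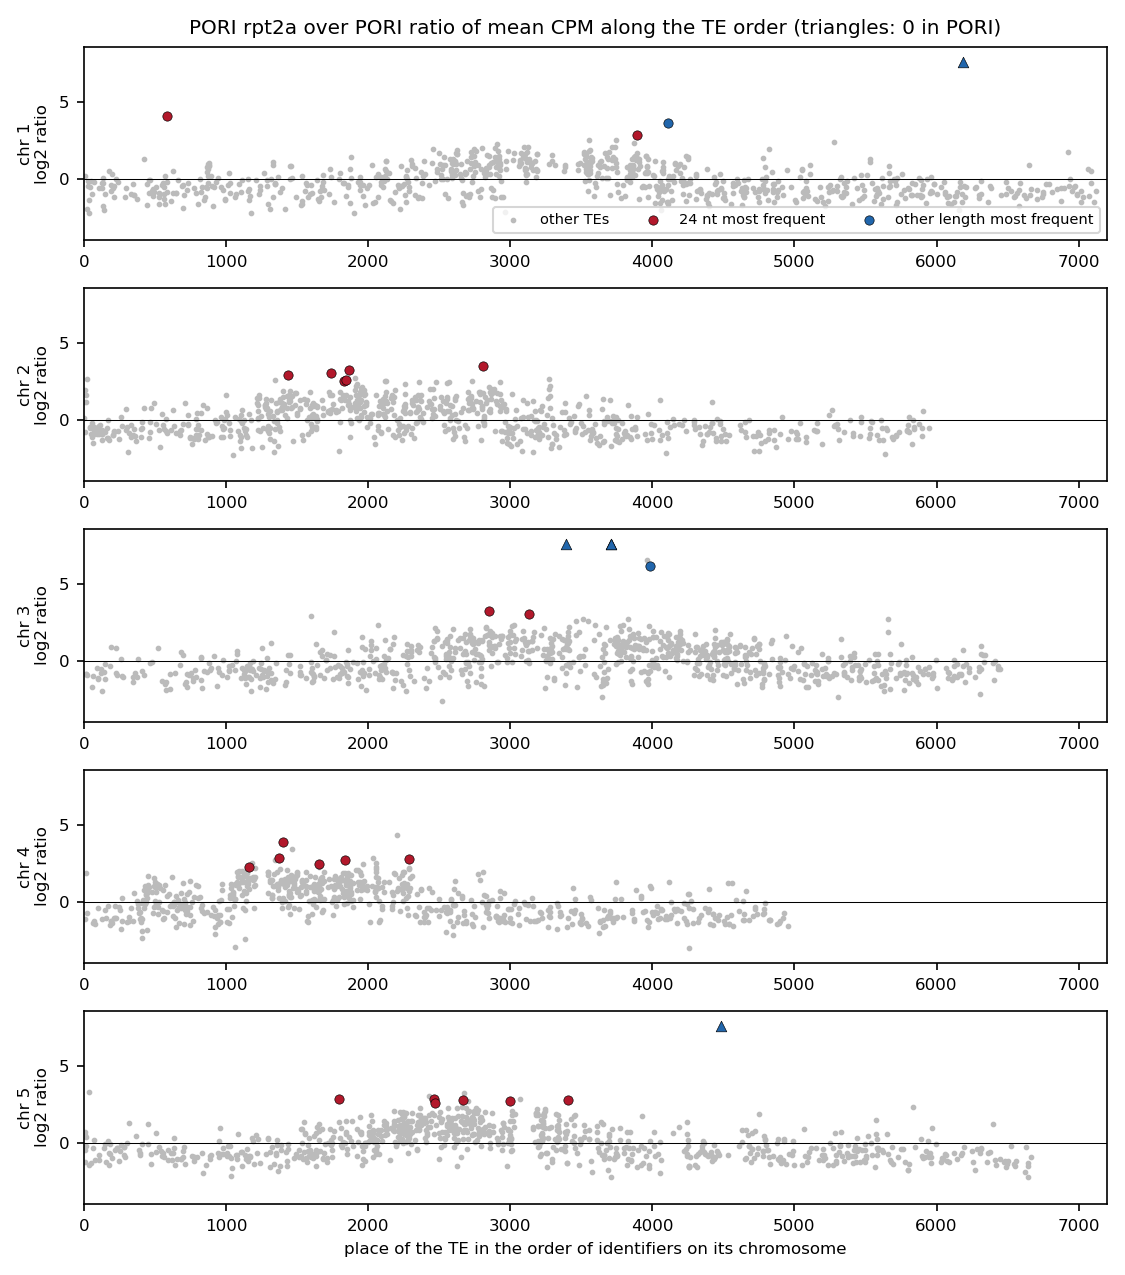
Log2 ratio of the mean CPM of PORI rpt2a to that of PORI for the 4241 TEs with at least 40 reads in PORI rpt2a, by place in the TE order of each chromosome, with members coloured and those at 0 in PORI drawn as triangles at the top. The grey points lie mostly above 0 in an inner stretch of each chromosome and mostly below 0 towards its ends, and 21 of the 22 red points stand within segments 3 to 6 of the order.

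**Figure D5:**
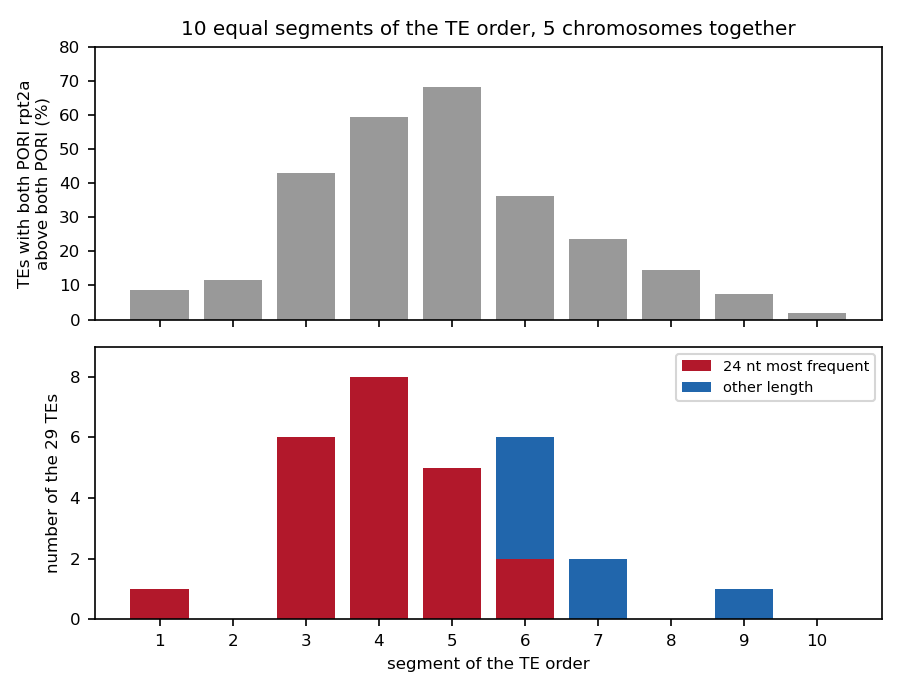
Upper panel, share of the 4241 TEs of each of 10 segments of the TE order with both PORI rpt2a libraries above both PORI libraries, and lower panel, number of the 29 TEs in each segment, 5 chromosomes together. The share peaks at 68.3% in segment 5, and the red bars stand in segments 3 to 6 except for 1 TE in the first.

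Within the 29, only AT3TE56940 with AT3TE56945 and AT5TE41600 with AT5TE41625 lay within 5 places of each other, so 4 of 29 (13.8%) lay that close to another member, against 88 of the 4212 other TEs with at least 40 mutant reads (2.09%), and the median distance between successive members of a chromosome was 265 places. AT2TE16010, AT2TE15925 and AT2TE16195 lay within a stretch of chromosome 2 with gaps of under 30 places, as did AT4TE15460 and AT4TE15590 on chromosome 4. Of the TEs around the 22, those with at least 40 mutant reads were mostly higher in the mutant too. That minimum counts mutant reads only, so neighbours with few mutant reads were left out, whatever their control level. It kept 88 of the 274 other TEs within 5 places of any member. Within 5 places of the 22 were 75 such TEs, and in 55 of these (73.3%) both PORI rpt2a libraries lay above both PORI libraries. The share was 34.6% over the 4241 TEs but 52.2% over the 2311 TEs of segments 3 to 6 that were not members, where 73 of the 75 neighbours lay, so part of the contrast goes with position. Their median log2 ratio was 1.04, or 0.81 and 1.52 with the scalings to the 3 tables and by TMM. AT4TE15475, near AT4TE15460, had 98 and 64 control and 355 and 167 mutant reads, and AT4TE18500, near AT4TE18490, had 272 and 197 control and 859 and 405 mutant reads. Both lay above that median, at log2 ratios of 2.16 and 1.89. Near the same 2 members, AT4TE15435 and AT4TE18485 were at 0.27 and 0.49, and neither had both mutant libraries above both controls. Of 13 such TEs that lay within 5 places of the 7 others only, 0 had both mutant libraries above both controls, and their median was -0.30. These 13 lay near AT1TE54185, AT3TE55285 and AT3TE58490 only, in segments 6 and 7. There the share over all TEs with at least 40 mutant reads was 36.1% and 23.5%, and a difference from the neighbours of the 22 was not tested. Reads that match several TEs may be counted at neighbours too, which was not tested, and the neighbours share the same libraries and position.

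Some members had counts equal to, or nested in, those of other entries. AT5TE54260 had the same count in each of 36 combinations of library and length as the tRNA gene AT5G37795, 45 reads in PORI rpt2a replicate 1 and 0 in the other 3 libraries, so the entries cannot be told apart. tRNA genes have near-identical copies, so its values are uncertain. AT5G30400_TEG, an entry for a transposable element gene, was at or below AT5TE41600 in all 36 combinations and held 153 reads against 184, 83.2%. Likewise AT1TE52975, AT4TE15460 and AT2TE14495 were at or below AT1G42740_TEG, AT4G06623_TEG and AT2G07694_TEG in all 36, with 74.1%, 71.0% and 67.9% of the reads of these entries. In all, 23 such nested entries of similar size were found for 15 members, 12 of them named for another chromosome than the TE. Among them was AT3TE47880, named below as just outside the 4-fold minimum, which was at or above AT3TE53870 in all 36. Nested entries were not sought for other TEs, so these numbers have no background share beside them. Shared reads, overlapping entries and chance in small counts cannot be told apart here. Among the TEs with at least 40 mutant reads, 8 had the same counts as another one throughout, and 0 of these were members.

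The 4-fold minimum ran through a continuous range of values. Just inside it, by the ratio of the lower PORI rpt2a level to the higher PORI level, were AT2TE16010 at 4.05, AT1TE54185 at 4.09, AT2TE15925 at 4.12, AT5TE47225 at 4.19 and AT5TE43230 at 4.21. Just outside were AT3TE47880 at 3.96, AT4TE19675 at 3.89, AT2TE20190 at 3.85, AT3TE55415 at 3.82 and AT1TE52135 at 3.80. AT4TE19675 was a far larger source of small RNA than any member, with 199 and 150 control and 905 and 687 mutant reads. A 3-fold minimum gave 84 TEs and a 6-fold minimum 7, of which 6 belonged to the 7 TEs without a 24 nt maximum and the other was AT1TE21715. The 5 members with no PORI reads meet any fold minimum, so among these TEs the 6-fold minimum bore only on AT3TE58490 and AT1TE21715. By the reverse rule, with PORI and PORI rpt2a exchanged, 127 of 5925 TEs with at least 40 PORI reads qualified as lower.

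edgeR's quasi-likelihood test over 8211 TEs called 0 higher or lower at an adjusted p of 0.05 (0%), so 0 of the 27 members it tested passed, with adjusted p-values of 0.0891 to 0.106. AT3TE55285 and AT5TE54260 were removed by its low-count filter. At an unadjusted p under 0.05 there were 1838 TEs, of which 1363 (16.6% of those tested) were higher, and these included all 27 tested members. DESeq2 called 585 TEs higher (7.12%), 10 members among them. As the members were chosen on this contrast, these counts say nothing further about them.

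The machinery that makes and uses these siRNAs could hardly be followed in small RNA reads. Of 31 genes of RNA-directed DNA methylation and TE silencing, 24 had fewer than 20 reads over the 4 libraries and 1 passed the filter of edgeR. This was MET1, the methyltransferase that maintains CG methylation, with 17 and 12 control and 4 and 4 mutant reads, which edgeR put at -1.36 ± 0.63 on the log2 scale (SE, 2 libraries per group, adjusted p = 0.270 over 8110 genes). Neither edgeR, which called 0.0247% of the genes tested (23% at an unadjusted p under 0.05), nor DESeq2, which called 7.26%, called MET1, and its unadjusted p in edgeR was 0.0755. The other 30 genes were not tested. Their read numbers below are not scaled. The miRNA, gene and TE tables together held 5806942 and 4809644 control and 5884528 and 3241463 mutant reads, so an equal level gives fewest reads in PORI rpt2a replicate 2. AGO4 had 9 and 10 control and 5 and 1 mutant reads, and DCL4 had 6 and 8 control and 9 and 2 mutant reads. Both were too rare to be tested. DMS3, which acts with RNA polymerase V, had 11 and 7 control and 7 and 0 mutant reads, and SUVH2, which helps to place that polymerase on chromatin, had 8 and 7 control and 5 and 1 mutant reads. MOM1, a silencing factor acting beside DNA methylation, had 1 and 5 control and 12 and 3 mutant reads, and ROS1, a DNA demethylase, had 10 and 5 control and 4 and 1 mutant reads. These are fragments of mRNA or siRNAs from it, and do not give the level of the mRNA.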

How the data were processed

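The authors deposited raw whole-number counts of reads of 18 to 26 nt, in 9 length columns per the file headers, in 3 tables per library for miRNAs, genes and TEs. Per the submitters' processing notes HTSeq, DESeq2, cutadapt 1.9.1, CASAVA 1.8.2 and FastQC 0.11.2 were used, with the TAIR10 build. The aligner, the treatment of reads with several matches and strand use are not given in the sources used here, so reads of near-identical TEs may have been assigned to any copy. Per the labels' protocols, small RNAs were cut from a gel before library preparation.

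Titles, where the mutant is PORIxrpt2a, gave the groups. Counts were summed over lengths and divided by the TE table total, without TMM factors. Since no label says the replicates are separate cultures, the p-values reflect nothing beyond the spread among the 4 libraries. The members and lists were chosen with earlier results of these data known. TEs named in the text follow a rule (those with most reads, the largest ratios, no PORI reads, clusters, extreme lengths and the borders of the threshold), and counts of further members, neighbours and nested entries were chosen after their values were seen. Counts of the TE and gene tables were tested with edgeR 4.0.16 in R 4.3.3 (TMM, filterByExpr with a minimum count of 10 and a total of 15, group as the only term, Benjamini-Hochberg adjustment), with DESeq2 1.42.0 as an alternative. The standard error of a log2 fold change is its size divided by the square root of F. On simulated counts for 7524 TEs the fit recovered 199 of 200 changed TEs with 10 false calls. The changes were a log2 fold of 3 up or down, placed only in TEs with many reads. The spread was a set value, the same for all TEs and libraries, and was not taken from these data. The result therefore checks that the fit runs and does not give its power on the real libraries. Shares and ratios carry exact (Clopper-Pearson) 95% intervals, which cover counting error only, as PCR copies could not be recognised. A fold against 0 used a floor of 3 reads over the group. Of 38194 gene table entries, 34001 were found by locus tag in RefSeq's TAIR10.1 gene table, which gave their classes, and 3897 entries end in TEG. Python 3.11.15, pandas 2.3.3, numpy 2.4.6, scipy 1.17.1 and matplotlib 3.10.9 were used.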

Additional observations from a re-analysis of the deposited data

How the results depend on the processing

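The number of TEs that met the rule moved with the thresholds, to 84 and 7 with fold minimums of 3 and 6, to 46 and 12 with count minimums of 20 and 80, to 54 against the mean PORI level, and to 73 with TMM-scaled library sizes. Scaling to the total of the 3 tables gave 24, of which 20 were among the 29. Leaving out 1 library gave 58 to 173. The 24 nt share of member reads, 42.2% in PORI rpt2a, was 47.5% as the median over members, 37.5% without the 5 members with most reads and 34.4% to 46.0% without 1 library. As choices added after the data were seen, it was 44.3% for members with at least 2 reads in each PORI rpt2a library and 50.3% for the 22 TEs led by 24 nt reads. Members in clusters numbered 2 within 2 places, 2 with the 3-table scaling and 12 of 84 with a fold minimum of 3. The 55 of 75 neighbours above both controls, also examined after the data were seen, ranged from 39 to 67 over scalings and 59 to 65 without 1 library.

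edgeR called 0 TEs with other size factors or filters that removed low counts, but 993 without a low-count filter, and DESeq2 605. Of the members these called 29 and 10. Without PORI replicate 1 or 2 edgeR called 29 or 21 TEs, and without PORI rpt2a replicate 1 or 2 it called 3202 or 1520. Of the members these fits called 5 to 29, a lone library being assumed to vary like the other group. With the replicate number as a block it called 0 TEs, 0 members and 0 silencing genes. Same-numbered libraries had correlated deviations (Pearson r = 0.12 over TEs and 0.16 over genes), but with 2 pairs and no label behind the numbers the block is no paired design. Of the silencing genes 0 were called under every alternative run, but only 1 to 5 of them could be tested except without a low-count filter, where all 31 were. Depth limits most members to under 20 PORI reads, so single ratios are imprecise.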
